A study of Mus musculus with 6 samples.

Results

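The BAF complex (the mammalian SWI/SNF chromatin remodeler) is known to change several of its subunits when a neural progenitor leaves the cell cycle and becomes a neuron. The 10 genes described here encode the subunits of that switch and the 2 ATPases around which the complex is built. They were taken by name from the deposited count table of 55367 gene names. The 4 subunits of progenitors were Actl6a, Phf10, Dpf2 and Ss18, the 4 of neurons were Actl6b, Dpf1, Dpf3 and Ss18l1, and the ATPases were Smarca4 and Smarca2. All 10 were among the 16976 genes with enough counts to be tested.

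In the assembled complex, paralogs compete for one position, so that a progenitor form is replaced by its neuronal relative. Actl6a (BAF53a) gives way to Actl6b (BAF53b) at the actin-like position. Ss18 gives way to Ss18l1 (CREST) at the SS18 position. For the BAF45 position, Phf10 (BAF45a) and Dpf2 (BAF45d) are grouped here as progenitor forms. Dpf1 (BAF45b) and Dpf3 (BAF45c) are grouped as neuronal forms. The neuronal form of the complex is known for its role in dendrite growth. The neuronal microRNAs miR-9-3p (also called miR-9*) and miR-124 are known to repress Actl6a, and the repressor REST holds these microRNAs down in progenitors.

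RNA-seq was carried out on polyA RNA from cells of the cerebral cortex of C57BL/6J mouse pups on postnatal day 1 (P1), cultured for 2 days. One group of 3 libraries came from wild-type (WT) pups and the other group of 3 from Fmr1-KO pups, which lack FMRP, the RNA-binding protein missing in fragile X syndrome. According to the study, ACSA2-positive astrocytes and myelin were depleted before plating. The study describes the samples as independently derived triplicates. The labels give no sex, litter or culture for any library, so P values measure the spread between these libraries. Fold-changes are given as Fmr1-KO relative to WT.

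Library totals ran from 30348556 to 35126207 counts. Fmr1 mRNA was used to check the labels. In WT it lay between 109.6 and 118.3 counts per 1000000, scaled by TMM (CPM). In Fmr1-KO it lay between 54.16 and 61.38 CPM, with a log2 fold-change of -0.98 (edgeR, adjusted P 2.25e-13). Fmr1-KO libraries thus kept 50.6% of the WT level, and RNA counts do not show whether the FMRP protein is absent. Across all tested genes, 42.6% were called at an adjusted P under 0.05 by edgeR's quasi-likelihood test, 20.7% as higher and 21.9% as lower in Fmr1-KO. Marker lists moved with genotype. Their summed level was 5069 to 5207 CPM in WT and 4340 to 4548 CPM in Fmr1-KO for 12 genes of neurons, with 11 called lower and 1, Dcx, called higher. It was 628.5 to 664.6 CPM in WT and 1064 to 1119 CPM in Fmr1-KO for 12 genes of proliferating cells, all called higher. Astrocyte genes were abundant in cultures labelled as neurons, with a summed level of 4293 to 4425 CPM in WT and 3689 to 4033 CPM in Fmr1-KO over 7 genes. Of these, 4 were called lower and 2 higher and 1 was not called. Gfap made up most of the sum, at 2649 CPM in WT and 2297 CPM in Fmr1-KO on average, while Gja1 had a log2 fold-change of 0.30. In bulk RNA, fewer cells of a type and less RNA per cell cannot be told apart.

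The sequences shown first belong to Actl6a, the member with the lowest P, and to the partner or relatives with which it is compared below. The mature microRNA is given 5′ to 3′ with its seed (bases 2 to 8) in capitals, and the stretch of Actl6a after the stop codon that matches this seed is given in DNA letters with the match in capitals. The printed stretch lies at chr3:32726629-32726657 on the plus strand of GRCm38, and the match in it starts at base 38 after the stop codon, within the 371 bases after the stop codon of the longest coding transcript. The same letters were also found after the stop codon of Smarca2 and not in the other 8 members. Only the longest coding transcript of each gene was searched, and the stretches ran from 90 bases (Phf10) to 3087 bases (Ss18). Mature microRNAs were not measured in these libraries, so the match is a description of the letters alone.
miR-9-3p: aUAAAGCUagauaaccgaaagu
Actl6a site: tcaacgtctgtAGCTTTAgtacactcagg

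Promoters are shown for Actl6a, Dpf1 and Dpf3, the subunits of the switch that were called, and for Actl6b, the partner of Actl6a, which was not called. Those of the ATPases are not printed. Each window runs from 250 bases before to 50 bases after the RefSeq start on GRCm38.p6 and is written along the gene. Capitals mark GC boxes (GGGCGG on either strand), which bind SP-family factors. GC boxes were found in the windows of 8 of the 9 members that had one, and in 35.7% of 32851 promoter windows of the same length. The other letters searched were TTCCCGC and TTGGCGC (E2F), GCATGCGC (NRF1), TGACGTCA (the cAMP response element), TTCAGCACC (one side of the REST site) and CAGCTG (an E-box). Among the members they matched only in Smarca4, which held GCATGCGC at 2 places, and in Phf10, which held CAGCTG once. GCATGCGC was found in 2.71% and CAGCTG in 16.3% of all windows. The GC boxes of the Actl6b window share 1 base. The windows held 3 GC boxes in Actl6a, 2 in Actl6b, 4 in Dpf1 and 1 in Dpf3, and G and C made up 63.7%, 61.7%, 74.0% and 55.3% of their bases.
Actl6a promoter, chr3:32708296-32708595 (plus strand): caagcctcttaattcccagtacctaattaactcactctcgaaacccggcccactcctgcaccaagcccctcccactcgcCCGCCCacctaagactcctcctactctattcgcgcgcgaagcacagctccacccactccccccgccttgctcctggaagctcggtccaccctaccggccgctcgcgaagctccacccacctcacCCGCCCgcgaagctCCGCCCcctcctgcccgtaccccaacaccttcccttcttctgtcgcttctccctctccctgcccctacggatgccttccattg
Actl6b promoter, chr5:137553296-137553595 (plus strand): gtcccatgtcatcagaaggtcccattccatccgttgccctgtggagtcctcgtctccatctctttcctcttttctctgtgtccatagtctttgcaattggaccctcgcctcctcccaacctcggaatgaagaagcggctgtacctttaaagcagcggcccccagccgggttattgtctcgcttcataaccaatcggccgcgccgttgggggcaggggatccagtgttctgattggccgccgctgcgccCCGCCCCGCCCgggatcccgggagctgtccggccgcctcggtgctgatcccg
Dpf1 promoter, chr7:29303755-29304054 (plus strand): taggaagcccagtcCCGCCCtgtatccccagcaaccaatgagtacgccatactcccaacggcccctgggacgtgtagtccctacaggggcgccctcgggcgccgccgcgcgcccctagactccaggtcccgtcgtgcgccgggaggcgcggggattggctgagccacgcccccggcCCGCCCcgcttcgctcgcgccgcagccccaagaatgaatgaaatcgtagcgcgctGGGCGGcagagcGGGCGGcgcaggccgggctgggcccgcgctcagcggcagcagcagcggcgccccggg
Dpf3 promoter, chr12:83487687-83487986 (minus strand): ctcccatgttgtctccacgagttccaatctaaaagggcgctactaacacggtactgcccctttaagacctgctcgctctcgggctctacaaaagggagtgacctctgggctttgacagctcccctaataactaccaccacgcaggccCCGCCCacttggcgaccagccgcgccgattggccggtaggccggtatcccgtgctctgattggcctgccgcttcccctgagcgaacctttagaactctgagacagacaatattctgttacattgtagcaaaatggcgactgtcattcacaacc

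Of the 10 members, 4 were called higher and 1 was called lower in Fmr1-KO. That is 50% of the members, against 42.6% of all tested genes and 50.6% of the 10433 tested genes within the members' range of mean levels (10.4 to 427 CPM), so the share called was near the background. None of the members changed by as much as 2-fold. Gene by gene, the calls did not follow the progenitor and neuronal labels. Among progenitor subunits Actl6a was higher and the other 3 did not pass, and among neuronal subunits Dpf3 was higher, Dpf1 was lower and the other 2 did not pass. Both ATPases were higher.

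Actl6a encodes an actin-related protein of the progenitor complex that is also a subunit of the INO80 and TIP60 complexes. The gene lies on chromosome 3 from 32706298 to 32726973 (plus strand, GRCm38). Its level was 56.88, 51.87 and 55.35 CPM in WT replicates 1, 2 and 3, and 67.66, 65.33 and 67.20 CPM in Fmr1-KO replicates 1, 2 and 3. Every Fmr1-KO library lay above every WT library, with a gap of 8.45 CPM between the nearest libraries. Separation of this kind, in either direction, was found for 51.7% of all tested genes (25.4% higher and 26.3% lower) and for 6 of the 10 members (5 higher and 1 lower). The means were 54.70 ± 2.57 CPM in WT and 66.73 ± 1.23 CPM in Fmr1-KO (SD, n = 3 per genotype). On the log2 scale Fmr1-KO was higher by 0.29 (SE 0.04), or 22% (edgeR adjusted P 6.58e-06).

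Actl6b, its neuronal partner, is expressed almost only in neurons after they leave the cell cycle and lies on chromosome 5 from 137553517 to 137569582 (plus strand). It was at 62.89, 70.56 and 68.38 CPM in WT and at 68.33, 64.71 and 69.70 CPM in Fmr1-KO. The genotypes overlapped throughout. Between them the log2 fold-change was 0.01 (95% interval -0.08 to 0.10, edgeR adjusted P 0.909). No difference was detected, and a difference within that interval remains possible.

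Because both genes are read from the same library, their ratio does not depend on the scaling between libraries. The log2 ratio of Actl6b to Actl6a counts was 0.145, 0.444 and 0.305 in WT replicates 1 to 3 and 0.014, -0.014 and 0.053 in Fmr1-KO replicates 1 to 3. All Fmr1-KO ratios lay below all WT ratios, and the mean differed by -0.28. The WT ratios were more spread (SD 0.15) than the Fmr1-KO ratios (SD 0.033).

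At the BAF45 position, Phf10 encodes a PHD-finger protein known to be needed for progenitor proliferation. It stood at 88.53, 90.13 and 85.61 CPM in WT and 92.26, 97.41 and 87.81 CPM in Fmr1-KO. The genotypes overlapped, with a log2 fold-change of 0.07 (95% interval -0.01 to 0.15, edgeR adjusted P 0.165). Dpf2, a broadly expressed member of the same family, was at 79.41, 77.34 and 79.50 CPM in WT and 84.33, 82.12 and 79.82 CPM in Fmr1-KO. The Fmr1-KO libraries lay above the WT libraries by a gap of only 0.318 CPM. The log2 fold-change of 0.06 (95% interval -0.01 to 0.13) did not pass (edgeR adjusted P 0.191).

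Dpf1, the family member that is restricted to neurons (chromosome 7, 29303951 to 29318243, plus strand), was the only member called lower. It was at 97.82, 102.0 and 104.0 CPM in WT and at 90.63, 88.20 and 90.54 CPM in Fmr1-KO, and no libraries overlapped. Its mean was 101.3 ± 3.14 CPM in WT and 89.79 ± 1.38 CPM in Fmr1-KO (SD, n = 3 in each). This is a log2 fold-change of -0.17 (SE 0.03), at an edgeR adjusted P of 0.000379.

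Dpf3, whose protein binds modified histone tails (chromosome 12, 83213745 to 83487716, minus strand), moved the other way from the lowest level of all members. It had 338, 273 and 335 counts in WT and 373, 356 and 402 counts in Fmr1-KO. These were 9.725, 8.257 and 10.04 CPM in WT and 11.47, 11.63 and 11.55 CPM in Fmr1-KO, again without overlap. The difference on the log2 scale was 0.31 (SE 0.08, 95% interval 0.14 to 0.47), at an edgeR adjusted P of 0.00428. Its interval was the widest of the 10 members, and without WT replicate 2, the lowest library, the log2 fold-change was 0.22. Dpf2 and Dpf3 are also 2 of the 1027 genes that the study named as targets of nonsense-mediated mRNA decay (NMD) in the mouse neuroblastoma line Neuro-2a. No other member is on that list.

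The log2 ratio of Dpf1 to Dpf2 counts was 0.301, 0.399 and 0.387 in WT and 0.104, 0.103 and 0.182 in Fmr1-KO. That of Dpf3 to Dpf2 was -3.030, -3.227 and -2.985 in WT and -2.878, -2.820 and -2.788 in Fmr1-KO. The genotypes did not overlap in either ratio, and the mean differences were of opposite sign, -0.23 for Dpf1 and 0.25 for Dpf3. The neuronal DPF genes thus differed between genotypes in opposite directions, relative to the same partner.

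At the SS18 position, neither gene differed detectably. Ss18 was at 68.42, 69.11 and 67.12 CPM in WT and 67.90, 69.12 and 66.57 CPM in Fmr1-KO, a log2 fold-change of -0.01 (95% interval -0.08 to 0.07, edgeR adjusted P 0.885). Ss18l1, whose protein is a calcium-responsive transactivator, was at 84.07, 87.14 and 82.17 CPM in WT and 84.51, 83.43 and 83.50 CPM in Fmr1-KO. Its log2 fold-change was -0.01 (95% interval -0.08 to 0.06, edgeR adjusted P 0.830). The libraries of the genotypes overlapped for both genes. Their log2 count ratio averaged 0.308 in WT and 0.305 in Fmr1-KO (SD 0.023 and 0.029, n = 3 per genotype).

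The ATPases drive remodeling by hydrolysing ATP, and a complex contains one or the other. Smarca4 (BRG1), the main ATPase of progenitors, was at 410.6, 417.1 and 405.9 CPM in WT and 452.5, 434.6 and 444.0 CPM in Fmr1-KO. Smarca2 (BRM) was at 195.6, 195.5 and 185.6 CPM in WT and 205.2, 215.8 and 202.5 CPM in Fmr1-KO. The libraries did not overlap for either gene, and both log2 fold-changes were 0.11 (SE 0.03), with adjusted P values of 0.00369 and 0.00982 by edgeR. Without WT replicate 3, the lowest Smarca2 library, the log2 fold-change of Smarca2 was 0.09 and its adjusted P was 0.0729 by edgeR. The log2 ratio of Smarca2 to Smarca4 overlapped between genotypes, averaging -1.097 in WT and -1.095 in Fmr1-KO.

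**Figure D1:**
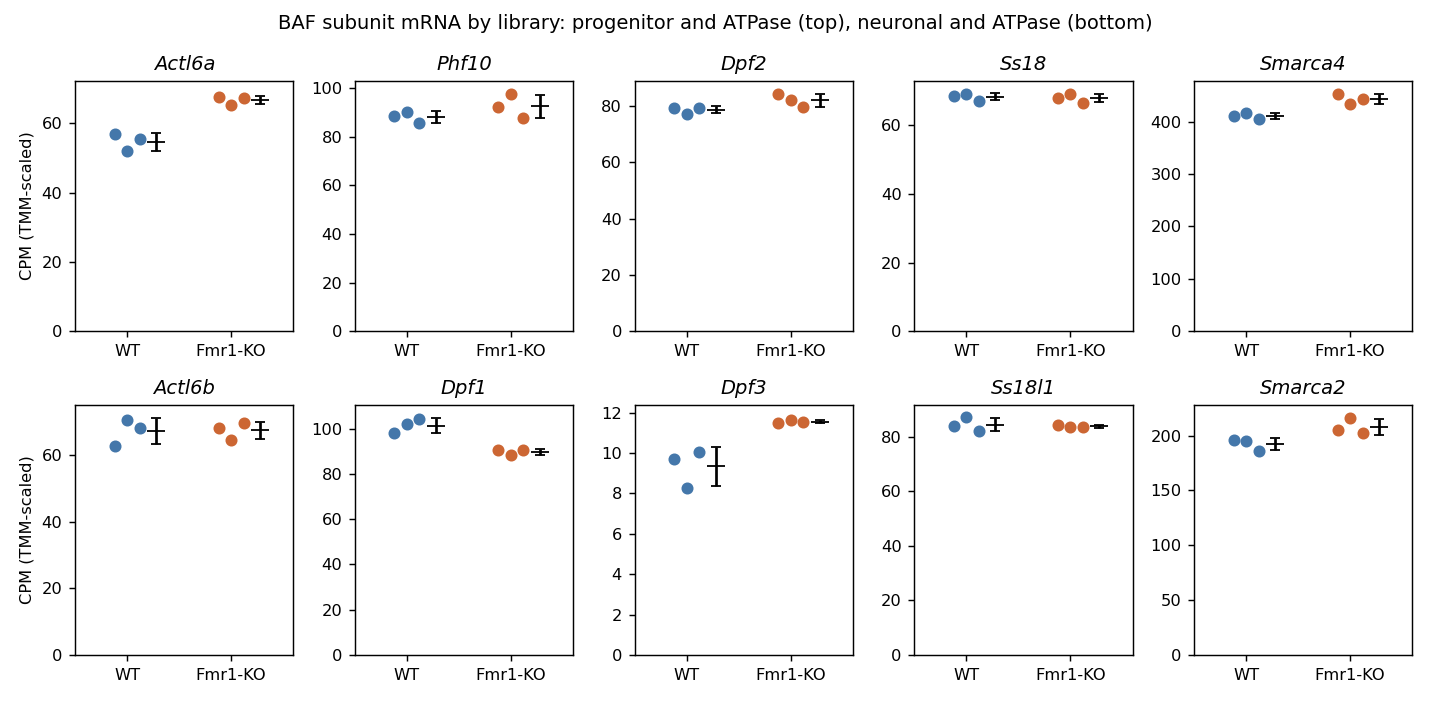
Level of each member in every library, in TMM-scaled CPM on axes that start at 0 (points, replicates 1 to 3 from left to right; black bars, mean ± SD, n = 3 per genotype). Actl6a, Dpf3, Smarca4 and Smarca2 lie higher and Dpf1 lies lower in all 3 Fmr1-KO libraries, while Actl6b, Phf10, Ss18 and Ss18l1 overlap. Dpf2 also lies higher in all 3, by a gap of only 0.318 CPM, and was not called.

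Put together by label, the median log2 fold-change was 0.06 for the 4 progenitor subunits and -0.0017 for the 4 neuronal ones, against 0.0060 for all tested genes. The mean log2 CPM of the neuronal subunits minus that of the progenitor subunits was -0.611, -0.568 and -0.527 in WT and -0.643, -0.676 and -0.591 in Fmr1-KO. These values overlapped between genotypes, and the mean differed by -0.07. By this mean, which weighs genes alike, the genotypes were not separated, although the Actl6b to Actl6a and Dpf1 to Dpf2 ratios separated them. Summed levels were 287.6 to 293.2 CPM in WT and 301.4 to 314 CPM in Fmr1-KO for the progenitor subunits, without overlap. For the neuronal subunits they were 254.5 to 267.9 CPM in WT and 248 to 255.3 CPM in Fmr1-KO, with overlap.

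The share that the neuronal form made up at each position was computed per library from counts per kilobase of exon. Actl6b made up 50.2%, 55.3% and 52.9% of the actin-like pair in WT and 47.9%, 47.4% and 48.6% in Fmr1-KO. The mean fell from 52.8% ± 2.58 to 48.0% ± 0.577 (SD, n = 3 per genotype), without overlap, since Actl6a rose and Actl6b did not differ detectably. Dpf1 and Dpf3 together made up 40.4%, 40.9% and 42.3% of the BAF45 position in WT and 38.1%, 37.1% and 39.4% in Fmr1-KO, also without overlap. This share pools Phf10, Dpf2, Dpf1 and Dpf3, and whether their proteins compete for one place was not tested. With Phf10 left out, Dpf1 and Dpf3 made up 62.7%, 63.7% and 64.0% in WT and 60.1%, 60.3% and 61.5% in Fmr1-KO. Ss18l1 made up 72.9% ± 0.317 of the SS18 pair in WT and 72.8% ± 0.403 in Fmr1-KO. Smarca2 made up 17.5% of the ATPase pair in both genotypes (SD 0.298 and 0.744). The level of a share depends on the length used, since the merged exons of Smarca2 span 14269 bases and its longest transcript 5921. With the longest transcript Smarca2 made up 33.5% of its pair and Ss18l1 54.2% of its own in both genotypes. Between WT and Fmr1-KO the mean share then went from 44.4% to 39.6% for the actin-like pair and from 42.9% to 39.7% at the BAF45 position, still without overlap. These are shares of mRNA and do not measure the makeup of assembled complexes.

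**Figure D2:**
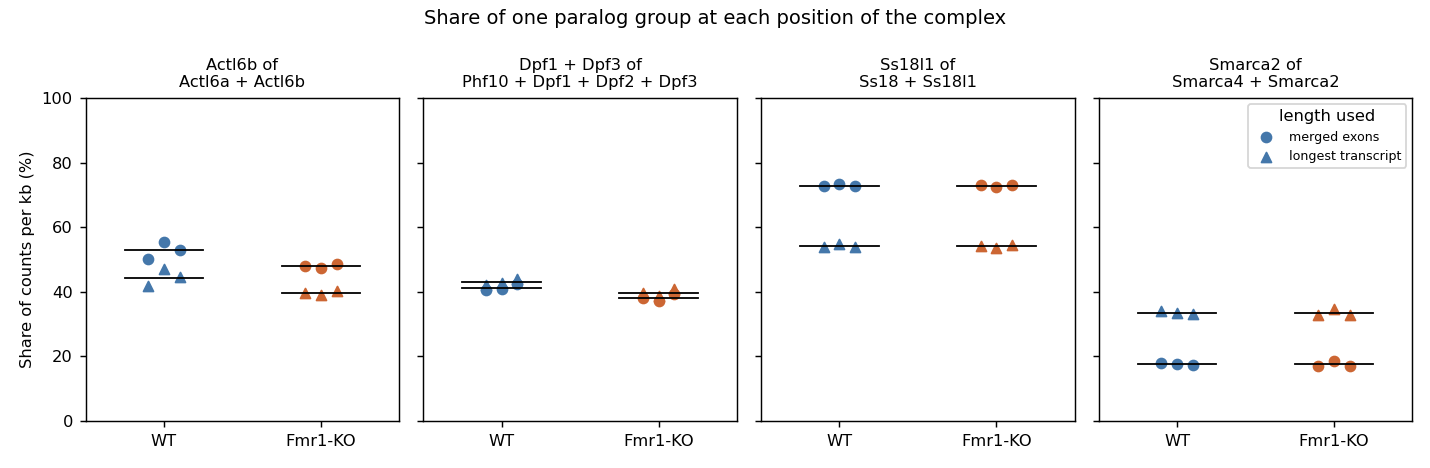
Share of counts per kilobase (%) taken by the neuronal form, or by Smarca2, at each position in each library, with lengths from merged exons (circles) or from the longest transcript (triangles); lines mark genotype means. The actin-like and BAF45 shares are lower in all Fmr1-KO libraries with both lengths, and the SS18 and ATPase shares overlap.

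To rank the members by level, CPM per kilobase were used. With merged exon lengths, Smarca4 was highest in WT at 63.5 ± 0.872 CPM per kilobase (SD, n = 3) and Dpf3 lowest at 2.21 ± 0.225. Between them lay Ss18l1 (19.4), Dpf1 (18.8), Phf10 (17.9), Actl6b (15.8), Actl6a (14.1), Smarca2 (13.5), Dpf2 (12.1) and Ss18 (7.24 CPM per kilobase). In that order Ss18l1 overlapped Dpf1, Dpf1 overlapped Phf10, and Actl6a overlapped Smarca2 across WT libraries. In Fmr1-KO, Actl6a stood above Actl6b, at 17.2 against 15.8 CPM per kilobase, and above Dpf1, at 16.7, although it overlapped Dpf1. The ranks in the middle depended on the length used. With the longest transcript Smarca2 was second in WT, at 32.5 CPM per kilobase, and Actl6a, at 27.2, was above Actl6b, at 21.7. Smarca4, Ss18 and Dpf3 kept the first, ninth and last ranks with both lengths and in both genotypes.

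The other 20 subunits of BAF and of its relatives PBAF and ncBAF were then examined. Of these, 11 were called higher, 1 was called lower and 8 did not pass, with a median log2 fold-change of 0.09. Among all tested genes 20.7% were called higher. Without WT replicate 1, 7 of the 20 were called higher. The largest increases were those of Pbrm1, the PBAF subunit with several bromodomains (0.23), Bicra, a scaffold of ncBAF (0.22), and Bcl11a, a zinc-finger factor of neurons and blood (0.18). Bcl7c was the one called lower (-0.15). Smarcc1 (BAF155), a core scaffold that is prominent in progenitors, was at 236.9, 225.8 and 227.6 CPM in WT and 258.1, 257.6 and 256.4 CPM in Fmr1-KO, a log2 fold-change of 0.16 (edgeR adjusted P 0.000149). Its partner Smarcc2 (BAF170) had a log2 fold-change of 0.06 (edgeR adjusted P 0.126). The summed level of the 20 genes was 2815 to 2818 CPM in WT and 2980 to 3006 CPM in Fmr1-KO.

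**Figure D3:**
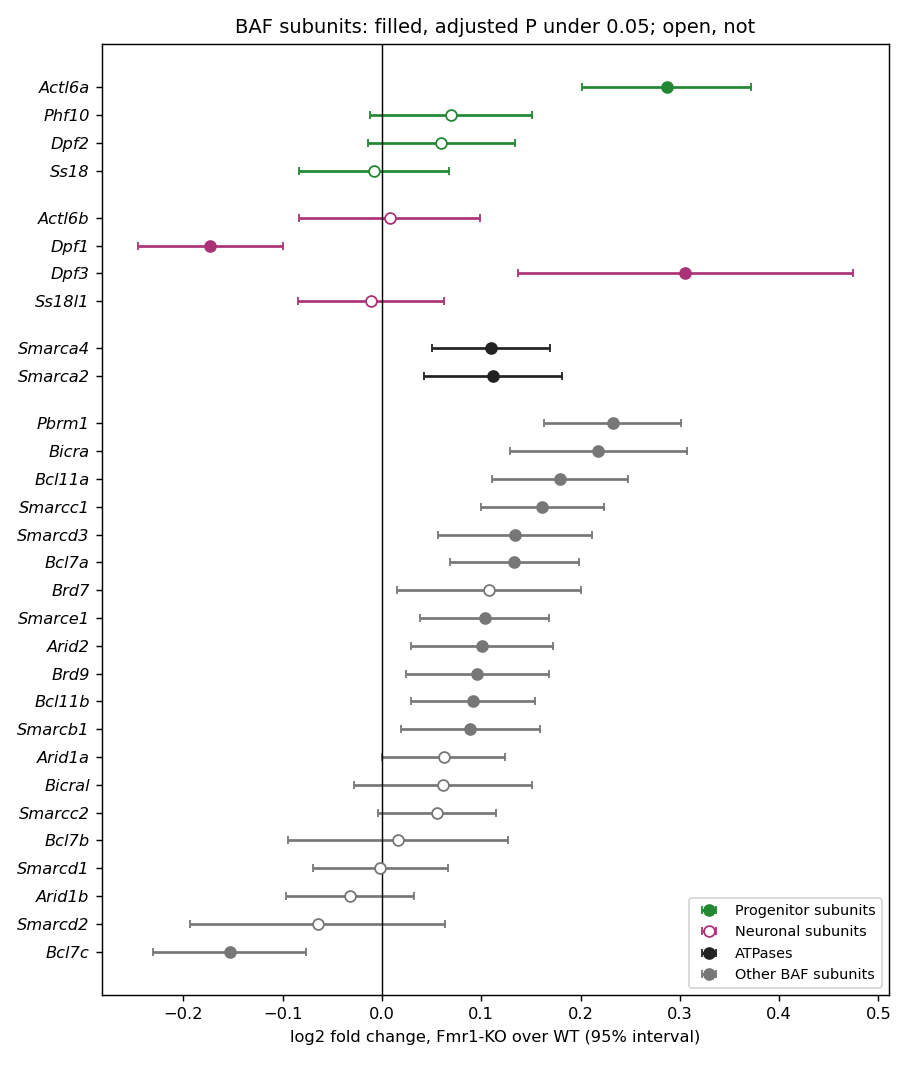
Log2 fold-change, Fmr1-KO over WT, of the 10 members and of 20 other BAF subunits, with 95% intervals from edgeR (filled, adjusted P under 0.05; open, not). Actl6a (0.29) and Dpf3 (0.31) have the largest values, and Dpf1 (-0.17) and Bcl7c (-0.15) the lowest.

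Among 9 genes known to regulate the switch, 6 were called higher and 0 lower by edgeR, against 20.7% and 21.9% of all tested genes. Rest, which encodes the repressor of neuronal genes and of miR-124, was at 26.01, 24.53 and 24.69 CPM in WT and 25.74, 25.71 and 26.67 CPM in Fmr1-KO (log2 fold-change 0.05; edgeR, adjusted P 0.429). Its corepressor Rcor2 had a log2 fold-change of 0.46, and Ptbp1, the splicing repressor of progenitors, one of 0.22. Mir124a-1hg, the host transcript of a miR-124 gene, had a log2 fold-change of 0.30. That of another miR-124 gene, Mir124-2hg, had one of 0.12 and did not pass (edgeR adjusted P 0.0738). The host transcript of Mir9-2, C130071C03Rik, had one of 0.19, and that of Mir9-3, Mir9-3hg, one of -0.01 (edgeR adjusted P 0.899). Host transcripts do not give the level of the mature microRNA.

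Genes known to need the neuronal complex for their expression during dendrite growth were all called lower, against 21.9% of all tested genes. Of the 4 on the list, Gap43, a growth-cone protein, had a log2 fold-change of -0.97 and Stmn2, a tubulin-binding protein of growing neurites, one of -0.65. Ngef (ephexin) had -0.37 and Rap1a -0.17. Stmn2 is also on the list of neuronal markers. In the same libraries 11 of 12 neuronal markers were lower, with a median log2 fold-change of -0.60. The log2 fold-changes of the neuronal subunits were 0.01 for Actl6b, -0.01 for Ss18l1, -0.17 for Dpf1 and 0.31 for Dpf3. The part of cell composition in these values was not tested.

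Actl6a rose beside the markers of proliferating cells, whose median log2 fold-change was 0.65, and of neural progenitors, whose median was 0.21 with 7 of 12 genes called higher and 5 not called. Log2 fold-changes in the progenitor list ran from -0.12 to 2.79, the highest being that of Eomes. The summed level of the progenitor markers was 3476 to 3520 CPM in WT and 3887 to 3973 CPM in Fmr1-KO. Vim, Slc1a3 and Fabp7 had the highest levels in this sum, at 1203, 803.8 and 648.5 CPM in WT on average. Their log2 fold-changes were 0.22, 0.03 and -0.01, and only that of Vim was called. Other cell types moved as well. Their summed levels were 1884 to 2046 CPM in WT and 1075 to 1159 CPM in Fmr1-KO for 8 genes of the oligodendrocyte lineage, all called lower. They were 160.2 to 177.5 and 93.98 to 104.8 CPM for 7 genes of microglia, of which 6 were called lower. For endothelial and mural cells they were 75.22 to 82.69 and 92.87 to 99.57 CPM, over 5 of 7 genes, since Cldn5 and Tek had too few counts to be tested. These went both ways, with 3 called higher, such as Kdr (log2 fold-change 1.23), and 1, Rgs5, called lower (-0.91). No marker on these lists was at 0 in all libraries. The part of these cell types in the changes of Actl6a, Dpf1, Dpf3, Smarca4 and Smarca2 was not tested.

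**Figure D4:**
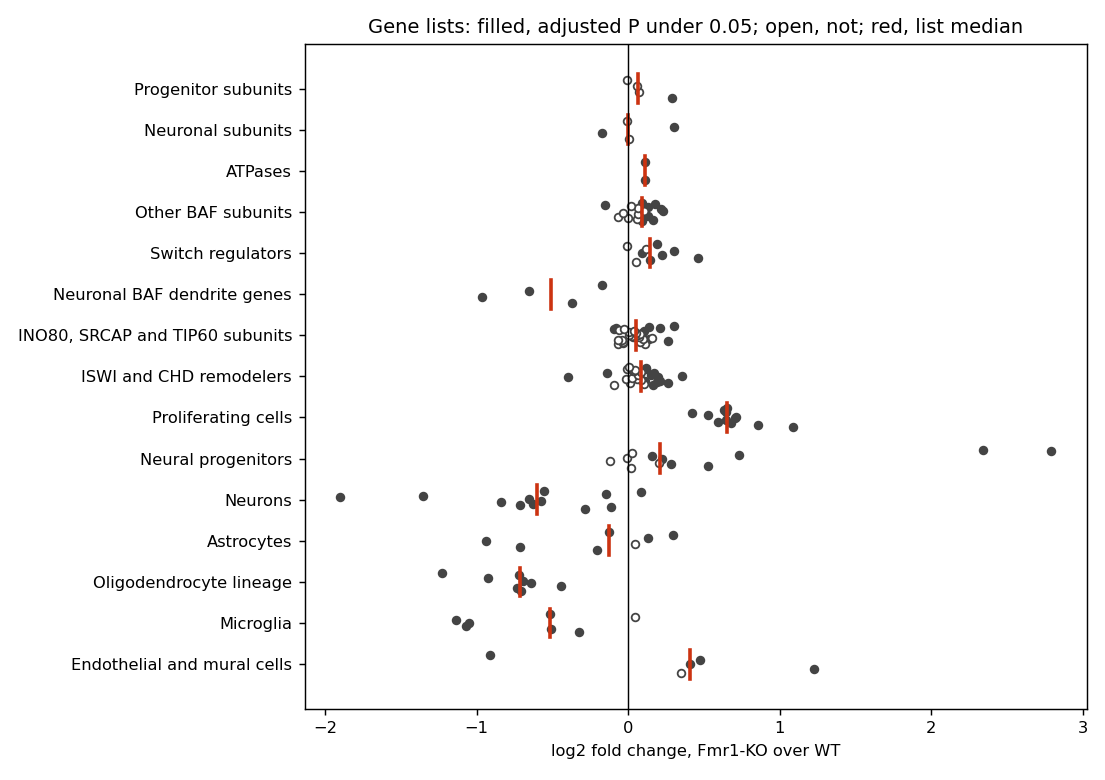
Log2 fold-change, Fmr1-KO over WT, of every tested gene in each list (filled, adjusted P under 0.05 by edgeR; open, not; red lines, list medians). The switch subunits and the other BAF subunits stay between -0.17 and 0.31, while proliferating-cell markers lie above and most neuronal markers below 0.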

How the data were processed

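RNA was measured in 3 WT and 3 Fmr1-KO libraries, grouped by their labels. The values deposited are whole counts for each gene name and were not normalized. According to the methods, single-end reads of stranded libraries were trimmed, aligned to GRCm38.p6 with STAR and assigned to exons by featureCounts on the reverse strand. The submitters' processing notes give STAR 2.7.6a and Subread 2.0.1, while the methods also allow another STAR version and name another Subread version. Strand keeps Actl6a apart from Mrpl47, with which it shares 452 exon bases on opposite strands. It does not keep Smarca4 apart from Gm27373 (99 shared bases on one strand).

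Counts of all genes were fitted with edgeR 4.0.16 in R 4.3.3 (filterByExpr, TMM, glmQLFit, glmQLFTest, two-sided, genotype as the only term, Benjamini-Hochberg adjustment, threshold 0.05). CPM are TMM-scaled, and an SE is the log2 fold-change divided by the root of F. Lengths and coordinates come from GENCODE M21 on GRCm38, promoter and microRNA sequences from RefSeq (GRCm38.p6). Promoters were matched for 9 of the 10 members. Merged exons take in those of all annotated transcripts, which lengthens some genes more than others. The members and lists were chosen with earlier results of these data known, so no P is given for a list. Named genes were the members, Fmr1, the largest called changes in each list and genes fixed by name (for Actl6a and Actl6b also the 3 genes with the most similar pattern). Other genes were named after their values were seen. Among them were Cldn5 and Tek, which were not tested, and Gja1, Kdr, Rgs5, C130071C03Rik and Mir9-3hg. Replicates differed by more than counting noise (chi-square per degree of freedom 3.03 in WT and 3.31 in Fmr1-KO). The alternatives were DESeq2 1.42.0, other normalizations and filters, a replicate block, leaving out each library, and other lengths for the shares.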

Additional observations from a re-analysis of the deposited data

How the results depend on the processing

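The calls of Actl6a, Dpf1, Dpf3 and Smarca4 held in all 13 alternatives, with log2 fold-changes of 0.25 to 0.32, -0.20 to -0.15, 0.22 to 0.36 and 0.09 to 0.14. That of Smarca2 held in 12 of 13. Phf10, Dpf2, Ss18, Actl6b and Ss18l1 passed in none of the 13, DESeq2 included. Of 130 recomputed single-member values, 120 kept direction and side of the threshold, 1 was weaker and 9 changed sign near 0. Ss18 was 0.0199 with library totals alone and 0.0028 with upper-quartile normalization, and ran from -0.0215 to 0.0054 over the 6 fits that each left out a library. Ss18l1 was 0.0168 with library totals and ran from -0.0310 to 0.0110 over those fits, and Actl6b ran from -0.0400 to 0.0425. The number of other BAF subunits called higher ran from 7 to 10 over the same fits against 11 with all libraries, 7 being without WT replicate 1, and the cause was not tested. Library totals alone moved the median of all genes by 0.0278 on the log2 scale.

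Replicate numbers did not pair the libraries: after subtracting genotype means, libraries of one number correlated at -0.0289, 0.0323 and -0.0147. Under the replicate block 4 members were higher and 1 was lower, as without it, and 3488 genes were higher and 3694 lower in all. Dpf3 had the fewest counts of the members, 273 to 402 a library, and the widest interval.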

Other observations

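Other remodelers gave a setting for the BAF subunits. Of 28 ISWI and CHD remodeler genes, 12 were called higher and 2 lower by edgeR, with a median log2 fold-change of 0.08. Of 29 INO80, SRCAP and TIP60 genes 7 were higher and 2 lower, with a median of 0.05. These calls made up 50% and 31% of the lists, against 42.6% of all tested genes. Among all tested genes 20.7% were called higher and 21.9% lower. Chd5, the CHD paralog of neurons, was at 163.9, 171.6 and 170.7 CPM in WT and 122.5, 129.7 and 131.7 CPM in Fmr1-KO, a log2 fold-change of -0.40 (edgeR adjusted P 5.67e-09). Its relatives Chd4 and Chd3 had log2 fold-changes of 0.02 and -0.02 and did not pass. Among ISWI ATPases, Smarca5, the form of dividing cells, was higher (0.16, edgeR adjusted P 0.00118) and Smarca1 did not pass (-0.09, edgeR adjusted P 0.212). The largest increases were those of Chd7 (0.35), Baz1b (0.26) and Rsf1 (0.21) in the first list and Brd8 (0.30), Actr5 (0.26) and Vps72 (0.21) in the second. Yy1 (-0.10) and Morf4l1 (-0.08) were the lower genes of the second list, and Mta3 (-0.14) was lower beside Chd5.

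Over the 6 libraries, 10762 genes averaged 10 CPM or more, and those with log2 CPM most like Actl6a were Cecr2, Mthfd1 and Gsta4 (Pearson r 0.998, 0.998 and 0.997). Those most like Actl6b were Ppp1r18, Tmsb10 and Obsl1 (Pearson r 0.970, 0.969 and 0.966). The points share libraries and genotype, so these values describe 6 libraries only. Among the other members, Dpf3 had the highest r with Actl6a (0.949) and Dpf1 the lowest (-0.931).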
